A study of Homo sapiens with 6 samples.

Results

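Transcripts of the liver X receptors (LXRs) and of genes for cholesterol export, lysosomal cholesterol release and cholesterol storage were read in human glioma cells with and without an siRNA against RPL13, a protein of the large ribosomal subunit. The 10 genes were chosen by name: the receptors NR1H2 and NR1H3, the exporters ABCA1 and ABCG1, the lipoprotein receptor SCARB1, the ubiquitin ligase MYLIP, the lysosomal genes NPC1, NPC2 and LIPA, and the storage enzyme SOAT1. All 10 were among the 21429 genes of the deposited table, and 9 of them were among the 15327 genes whose mean was high enough to test. ABCG1 was not.

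U251 is an established human glioma line. Cells of both groups carried a stable, doxycycline-inducible amyloid precursor protein with the K670N and M671L changes, electroporated with a control siRNA (siNC) or with the RPL13 siRNA (siRPL13). Doxycycline at 1 µg/mL was present in both groups from the medium change at 24 h, and total RNA was taken at 72 h. Each group had 3 libraries, which the labels call biological replicates without saying how the cultures were separated, so p-values measure the spread between these libraries.

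LXRs are nuclear receptors that bind oxysterols, oxidised forms of cholesterol, and act on DNA as heterodimers with retinoid X receptors (RXRs). Active LXRs raise transcription of ABCA1 and ABCG1, which pass cholesterol to apolipoproteins and to high-density lipoprotein (HDL), and of MYLIP (also called IDOL), which marks lipoprotein receptors such as VLDLR and LRP8 for degradation. Cholesterol taken up in lipoproteins is freed from its esters by LIPA in the lysosome, handed out by NPC2 and NPC1, and re-esterified for storage by SOAT1. In the brain, astrocytes export cholesterol to neurons on lipoproteins that carry apolipoprotein E. Separately from LXR, microRNAs of the miR-33 family, made from introns of SREBF2 and SREBF1, are known repressors of ABCA1.

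The miR-33 sequences are shown because both host genes were lower in siRPL13 replicates 1 and 2 and ABCA1 is the best known target of these microRNAs. ABCA1 was lower in the same libraries, so it moved in the same direction as the host genes. The part of miR-33 in the ABCA1 values was not tested. MIR33A lies within SREBF2 (chromosome 22, bases 41900949 to 41900969, plus strand) and MIR33B within SREBF1 (chromosome 17, bases 17813897 to 17813916, minus strand; RefSeq, GRCh38.p14). Capitals mark the seed, bases 2 to 8, which the microRNAs share:
hsa-miR-33a-5p: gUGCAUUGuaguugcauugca
hsa-miR-33b-5p: gUGCAUUGcuguugcauugc
The DNA letters that pair with this seed, CAATGCA, occurred 4 times in the 3313 bases of the ABCA1 3′ untranslated region and once in that of NPC1 (765 bases), read in 1 transcript per gene. They occurred 0 times in those of the other 8 genes. Of 18927 such regions scanned, 7.5% held a match. Only 0.1% of 1717 regions of like length held as many as ABCA1, and 3.7% of 2076 regions of like length to NPC1 held at least 1. The 3 matches packed into one stretch of ABCA1, the first and second of them overlapping, and the other match and that of NPC1 are given with the matching letters in capitals (GRCh38, minus strand):
ABCA1, chr9:104784155-104784184: tattCAATGCAATGCAattCAATGCAatga
ABCA1, chr9:104782823-104782852: ttttaattgcaaCAATGCAaaagccaagaa
NPC1, chr18:23531863-23531892: gtaaaggccaatCAATGCActgtctgtctc
Mature microRNAs were not measured in these libraries. The row of the MIR33B gene stood between -0.04 and -0.01 in all 6 libraries, below the minimum of 3 for a test.

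Promoter windows of 250 bases before to 50 after the start (RefSeq, GRCh38.p14) were found for 8 of the 10 genes. Each was searched on both strands for the LXR element called DR4, which is AGGTCA, 4 bases of any kind and AGGTCA again, with up to 2 mismatches, for the sterol element TCACNCCAC and for the E-box CACGTG, both without mismatch. ABCA1 alone of the 8 held any match. Its DR4 match at bases -69 to -54 lay on the strand opposite to the gene with 2 mismatches, where 2.34% of 35116 windows hold a match. In GENCODE 29 this stretch lies in the first exon of an ABCA1 transcript that starts further upstream. The E-box was at -147 to -142, and 7.26% of windows hold one. Both are printed on the minus strand, with the match in capitals:
ABCA1, DR4, chr9:104928202-104928231: caggcttTGACCGATAGTAACCTctgcgct
ABCA1, E-box, chr9:104928285-104928314: gggccccggctcCACGTGctttctgctgag
The SREBF2 window, shown because this gene hosts MIR33A, held the sterol element exactly at -133 to -125, as 1.13% of windows do:
SREBF2, chr22:41832962-41832991: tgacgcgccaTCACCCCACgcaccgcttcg
A match of letters is a description of the sequence and does not show binding.

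Levels are deposited regularized-log (rlog) values, in log2 units, and the depth of the libraries is unknown. RPL13 was read first: it stood at 14.05, 14.16 and 14.18 in siNC, at 13.03 and 13.12 in siRPL13 replicates 1 and 2, against 14.09 for the library labelled siRPL13 replicate 3. RPL13 was therefore not lowered in that library, and differences of the 10 genes are given both with all 6 libraries and with the 5 that remain without it. The 5-library comparison was chosen with this known and rests on 2 siRPL13 libraries. "Rose" and "fell" refer to a limma adjusted p under 0.05 over all genes tested in the 5-library comparison. The median of all genes tested was 9.12 to 9.13 in every library. Of 9 markers of glioma cells of astrocytic kind, 8 were in the table and all 8 could be tested, with means from 5.64 for S100B to 16.1 for VIM. VIM and NES fell (-0.31 ± 0.07 and -0.34 ± 0.05, SE, log2; limma adjusted p 0.0091 and 0.00227), and the other 6 did not pass. The share that fell was 25% of the 8, against 10.7% of all genes tested. The summed linear level of the 8 was 199900 to 233290 in siNC and 179760 to 190860 in siRPL13, so the groups did not overlap. Such a sum is led by its most abundant genes, here VIM, CD44 and GFAP, and does not describe all 8. Among the 6 that did not pass, GFAP differed by -0.31 and FABP7 and S100B by -0.04 each (5 libraries, log2). EGFR, CD44 and SOX9 differed by 0.10, 0.07 and 0.06. Groups of single genes did not overlap over 6 libraries in 13.8% of all genes tested. The part of the marker differences in the results that follow was not tested. Of 9 markers of macrophages and microglia, cells known for strong LXR activity, 5 were in the table, with CD68, ITGAM and TREM2 below 2. Their summed linear level was 48.1 to 50.7 in siNC and 46.4 to 54.3 in siRPL13. The library labelled siRPL13 replicate 3 also held the highest sum of 5 neuron markers, 808 against 595 to 668 in the others. This came from STMN2, at 7.71 there and 4.61 to 4.66 elsewhere: without it the sum was 599, within the 570 to 643 of the others. That library also had the highest level of interferon-stimulated genes, given beside ABCA1.

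With all 6 libraries, 0 of the 9 tested genes passed the limma test, against 0 of all genes tested (0%; 8.32% of all genes had an unadjusted p under 0.05). In the 5-library comparison 4 of the 9 passed, against 19.1% of all genes tested. ABCA1, MYLIP and NPC2 fell, against 10.7% of all genes that fell. SOAT1 rose, against 8.42% of all genes that rose. NR1H2, NR1H3, NPC1, LIPA and SCARB1 did not pass. In 6 of the 9 genes the groups did not overlap over the 5 libraries, as in 51.3% of all genes tested. The median difference of the 9 was -0.05 (log2), beside 0.00 for all genes tested. These are bulk libraries, in which fewer cells with a transcript and less of it per cell cannot be told apart.

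**Figure D1:**
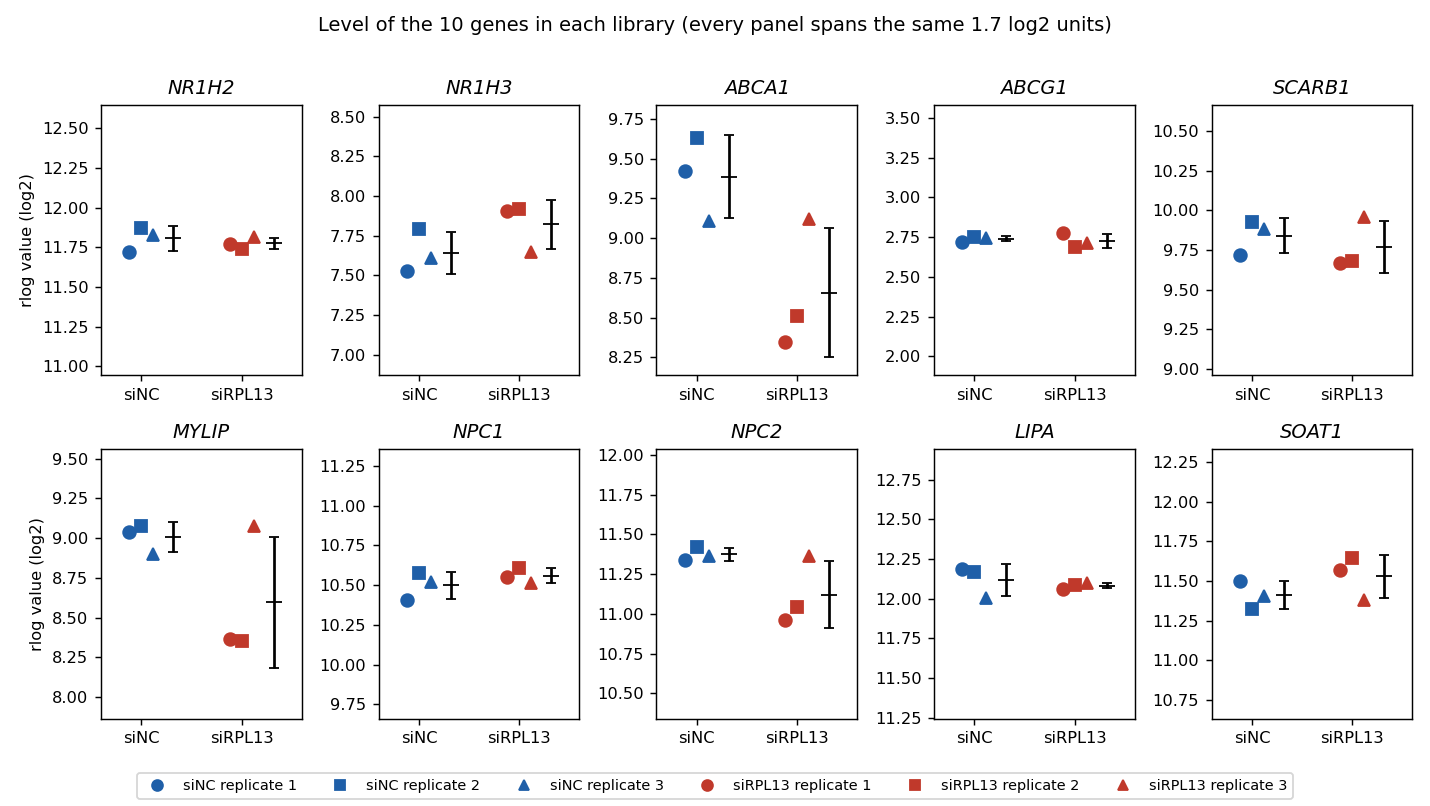
Level of each of the 10 genes as rlog values (log2, vertical axes not starting at 0, each spanning the same range), with 1 point per library (blue for siNC, red for siRPL13, shapes for the labelled replicate numbers) and black bars for the group mean ± SD over 3 libraries. ABCA1, MYLIP and NPC2 lie below all siNC libraries in siRPL13 replicates 1 and 2 and within the siNC range in the library labelled siRPL13 replicate 3.

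The receptors themselves showed no change that passed the test. NR1H2 (ENSG00000131408, GRCh38 chromosome 19, 50329653 to 50382982, plus strand) encodes LXR beta, the form found in most tissues. It stood at 11.72, 11.87 and 11.83 in siNC and at 11.77, 11.74 and 11.81 in siRPL13, so the groups overlapped. The difference was -0.03 ± 0.06 (SE, limma adjusted p 0.874) with 6 libraries and -0.05 ± 0.06 with 5 (limma adjusted p 0.569), where the 95% interval ran from -0.17 to 0.07.

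NR1H3 (ENSG00000025434, chromosome 11, 47248300 to 47269032, plus strand) encodes LXR alpha, the form best known from liver, fat and macrophages. Its rlog values were 7.53, 7.79 and 7.61 in siNC, 7.91 and 7.92 in siRPL13 replicates 1 and 2, against 7.65 for the library labelled siRPL13 replicate 3. The first 2 siRPL13 libraries lay above every siNC library and the last lay among them. The 5-library difference of 0.27 ± 0.09 (SE) missed the threshold (limma adjusted p 0.0539; 95% interval 0.08 to 0.46), and with 6 libraries it was 0.18 ± 0.10 (limma adjusted p 0.617). Under 5 of the 10 other settings that keep both siRPL13 libraries it passed, always as higher. Those 10 settings are not independent of each other. NR1H3 shares 189 exonic bases with ACP2 on the opposite strand, and the sources used here do not state whether counting was by strand. ACP2 stood higher than NR1H3, at 11.03 to 11.17 in siNC and 10.86 to 11.23 in siRPL13. The part of this overlap in the NR1H3 values was not tested.

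ABCA1 had the largest difference of the 9 tested genes. ABCA1 (ENSG00000165029, chromosome 9, 104781002 to 104928237, minus strand) encodes the transporter that loads cholesterol and phospholipid onto lipid-poor apolipoproteins. It stood at 9.42, 9.63 and 9.11 in siNC and at 8.35 and 8.51 in siRPL13 replicates 1 and 2. The library labelled siRPL13 replicate 3 was at 9.12, next to siNC replicate 3, which was the lowest siNC library. ABCA1 fell by 0.96 ± 0.12 (SE, log2, limma adjusted p 0.000981). As a linear ratio computed from the rlog difference, this is 51.4% of the siNC level. ABCA1 passed under the 10 other settings that keep both siRPL13 libraries. Leaving either of them out also gave a call, but there the lone siRPL13 library is assumed to vary like siNC. With 6 libraries the difference was -0.73 ± 0.20 (unadjusted p 0.00577, limma adjusted p 0.589).

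Interferon-stimulated genes ranked the siNC libraries in the same order as ABCA1. All 15 listed fell in the 5-library comparison, against 10.7% of all genes tested. They were listed because earlier results of these data had shown them to differ between libraries. Set against the siNC mean, their median was 0.23, 0.40 and -0.63 over siNC replicates 1 to 3 and -1.51 and -0.97 for siRPL13 replicates 1 and 2, against 0.83 for the library labelled siRPL13 replicate 3. In the library with the highest of these medians ABCA1 differed from the siNC mean by -0.27. The part of the interferon-stimulated genes in the ABCA1 difference was not tested.

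The genes whose profile over the 6 libraries was most like that of ABCA1 were OLMALINC, a long noncoding RNA, STARD4, a cytosolic sterol carrier, and ERFE, a secreted regulator of iron metabolism. Likeness was the root mean square difference of the values relative to the siNC mean over 6 libraries, among 12847 genes, and was 0.086 for OLMALINC, 0.089 for STARD4 and 0.160 for ERFE (log2). OLMALINC stood at 8.79, 8.99 and 8.58 in siNC, 7.75 and 7.79 in siRPL13 replicates 1 and 2, against 8.36 for the library labelled siRPL13 replicate 3. Unlike ABCA1, it was below every siNC library in all 3 siRPL13 libraries. STARD4 stood at 9.23, 9.21 and 8.83 in siNC and 8.02, 8.28 and 8.94 in siRPL13 in the labelled order, so the last overlapped siNC as in ABCA1.

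ABCG1 (ENSG00000160179, chromosome 21, 42199689 to 42297244, plus strand), the transporter that passes cholesterol to formed HDL particles, was close to the low end of the table. It stood at 2.72, 2.75 and 2.75 in siNC and 2.77, 2.69 and 2.72 in siRPL13. Its mean was under the minimum of 3, so it was not tested. The rlog transformation pulls values of genes with few reads together, and differences in ABCG1 may be understated for that reason.

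SCARB1 (ENSG00000073060, chromosome 12, 124776856 to 124882668, minus strand) encodes the HDL receptor that exchanges cholesterol with HDL in both directions. It stood at 9.72, 9.92 and 9.88 in siNC, 9.67 and 9.68 in siRPL13 replicates 1 and 2, against 9.96 for the library labelled siRPL13 replicate 3, the highest of all 6. The difference with 5 libraries, -0.17 ± 0.07 (SE), did not pass (limma adjusted p 0.121; 95% interval -0.32 to -0.01). SCARB1 passed as lower under 2 of the 10 other settings that keep both siRPL13 libraries. With 6 libraries the difference was -0.07 ± 0.10 (limma adjusted p 0.806).

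MYLIP (ENSG00000007944, chromosome 6, 16129125 to 16148248, plus strand) fell, as did VLDLR and LRP8, receptors that its product degrades. It stood at 9.04, 9.08 and 8.90 in siNC, 8.36 and 8.35 in siRPL13 replicates 1 and 2, against 9.07 for the library labelled siRPL13 replicate 3. The first 2 siRPL13 libraries were nearly equal and below every siNC library, and the last was level with the highest siNC libraries. MYLIP fell by 0.65 ± 0.07 (SE, log2; limma adjusted p 0.000645), to 63.8% of siNC, and passed under the same 10 settings. With 6 libraries the difference was -0.41 ± 0.18 (limma adjusted p 0.589).

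VLDLR, a receptor for triglyceride-rich lipoproteins and reelin, stood at 11.88, 11.79 and 11.76 in siNC and 11.28, 11.27 and 11.58 in siRPL13 in the labelled order. LRP8, a receptor for apolipoprotein E and reelin, stood at 11.26, 11.22 and 11.27 against 10.59, 10.67 and 11.16. For both receptors the groups did not overlap even with the library labelled siRPL13 replicate 3 included, which held for 13.8% of all genes and for 0 of the 10 LXR, export and storage genes. In the 5-library comparison LRP8 fell by 0.62 ± 0.05 and VLDLR by 0.53 ± 0.05 (SE, log2; limma adjusted p 0.000149 and 0.000324). With 6 libraries neither passed (limma adjusted p 0.589 for each).

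**Figure D2:**
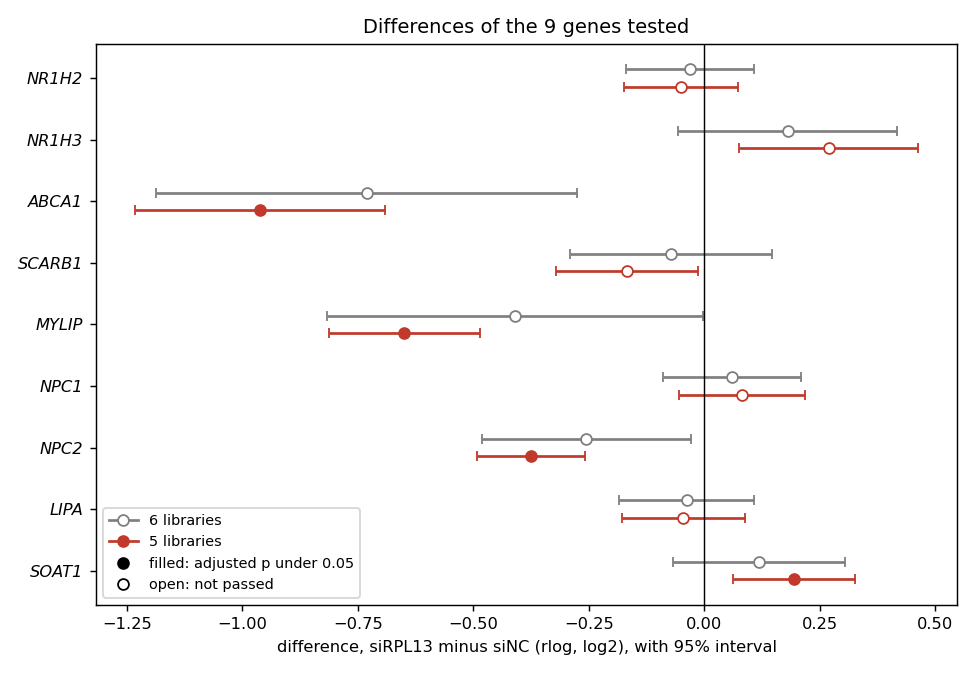
Difference between siRPL13 and siNC for the 9 tested genes (rlog, log2; horizontal bars are 95% intervals), with all 6 libraries in grey and with 5 in red, filled where the limma adjusted p was under 0.05. ABCA1 at -0.96, MYLIP at -0.65, NPC2 at -0.37 and SOAT1 at 0.19 are filled in red, and no grey point is filled.

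Of the 3 lysosomal genes only NPC2 passed the test. NPC2 (ENSG00000119655, chromosome 14, 74476192 to 74494177, minus strand) encodes the soluble lysosomal protein that binds freed cholesterol. It stood at 11.34, 11.42 and 11.37 in siNC, 10.96 and 11.04 in siRPL13 replicates 1 and 2, against 11.36 for the library labelled siRPL13 replicate 3. The last sat inside the narrow siNC range. NPC2 fell by 0.37 ± 0.05 (SE, log2; limma adjusted p 0.00147), to 77.1% of siNC, and passed under the same 10 settings. With siRPL13 replicate 1 left out, which leaves a lone siRPL13 library, it did not pass (limma adjusted p 0.0632). With 6 libraries the difference was -0.25 ± 0.10 (limma adjusted p 0.589).

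NPC1 (ENSG00000141458, chromosome 18, 23506184 to 23586898, minus strand) encodes the membrane protein that takes cholesterol over from NPC2. It stood at 10.41, 10.58 and 10.52 in siNC and 10.55, 10.61 and 10.52 in siRPL13. The groups overlapped, and the 5-library difference of 0.08 ± 0.06 (SE) did not pass (limma adjusted p 0.381; 95% interval -0.05 to 0.22; 6 libraries, 0.06 ± 0.07, adjusted p 0.768). LIPA (ENSG00000107798, chromosome 10, 89213569 to 89414557, minus strand) encodes the lysosomal acid lipase. It stood at 12.19, 12.17 and 12.005 in siNC and 12.06, 12.08 and 12.10 in siRPL13, all within the siNC range, with a 5-library difference of -0.05 ± 0.06 (SE; limma adjusted p 0.637; 95% interval -0.18 to 0.09). With 6 libraries it was -0.04 ± 0.06 (limma adjusted p 0.852).

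Exons of these lysosomal genes overlap others on the opposite strand. NPC2 shares 103 bases with ISCA2, NPC1 shares 604 with RMC1, and LIPA shares 65 with the interferon-stimulated gene IFIT2. ISCA2 stood at 8.82 to 8.95 in siNC and at 8.69 to 8.87 in siRPL13, and RMC1 at 8.42 to 8.52 and 8.33 to 8.46. IFIT2 varied from 9.22 to 11.51 over the 6 libraries, while LIPA spanned 12.005 to 12.19. The part of these overlaps in the values was not tested.

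SOAT1 (ENSG00000057252, chromosome 1, 179293714 to 179358680, plus strand), the enzyme that esterifies cholesterol for storage in droplets, stood at 11.50, 11.32 and 11.41 in siNC. It was at 11.57 and 11.64 in siRPL13 replicates 1 and 2, against 11.38 for the library labelled siRPL13 replicate 3. The first 2 were above every siNC library and the last was among them. SOAT1 rose by 0.19 ± 0.06 (SE, log2; limma adjusted p 0.0452), to 114% of siNC. The call was lost under 4 of the 10 settings that keep both siRPL13 libraries, with a limma adjusted p of up to 0.0953, and under both that leave 1 (up to 0.309). With 6 libraries the difference was 0.12 ± 0.08 (limma adjusted p 0.652).

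Compared per length (rlog minus the log2 of the exonic length in kilobases), the siNC levels were highest for NPC2 at 9.92, NR1H2 at 9.90 and LIPA at 9.82, which lay within about 1 SD of each other. SOAT1 followed at 8.60, then MYLIP at 7.40, NPC1 at 7.16, SCARB1 at 6.89, ABCA1 at 5.88 and NR1H3 at 5.46, with ABCG1 last at 0.13. From LIPA down, each gap between neighbours was larger than the SD of either gene over the siNC libraries. NR1H2 thus stood above NR1H3 on this scale in siNC. The order is approximate, since rlog values are not made for comparing genes and the exonic length counts every annotated exon.

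The genes around these 10 in the pathway were described through 7 lists, with 5-library values unless 6 libraries are named. Over all genes tested, 8.42% rose, 10.7% fell and the median difference was 0.00. Of 15 RXR partners and LXR coregulators, 13 were tested, 3 rose (23.1%) and 1 fell (7.69%), with a median difference of 0.10 (0.09 with 6 libraries). GPS2, a subunit of the nuclear receptor corepressor complex, rose by 0.32 ± 0.08 (SE, log2), the acetyltransferase CREBBP by 0.21 ± 0.05 and the corepressor NCOR1 by 0.19 ± 0.05. TBL1X, another subunit of the corepressor complex, fell by 0.29 ± 0.08. RXRA, the partner of both LXRs, did not pass (-0.14 ± 0.05, limma adjusted p 0.104; with 6 libraries -0.06 ± 0.08, adjusted p 0.796). RXRB stood below 1 in all 6 libraries, under the minimum of 3 for a test, and the cause of this low value was not tested.

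Other known LXR targets did not move as one group. Of 20 listed, 12 were tested, 5 fell (41.7%) and 1 rose (8.33%), with a median of -0.17 (-0.13 with 6 libraries). Those that fell are enzymes and regulators of fatty acid, phospholipid and triglyceride metabolism. They were the desaturase SCD (-2.36 ± 0.15), SREBF1 (-2.03 ± 0.13), the fatty acid synthase FASN (-0.59 ± 0.07), the phospholipid acyltransferase LPCAT3 (-0.35 ± 0.06) and the lipoprotein lipase LPL (-0.30 ± 0.09). SREBF1, SCD and FASN are also known targets of the sterol regulatory element-binding proteins. APOE, the main apolipoprotein of astrocytes, did not pass (0.15 ± 0.09, limma adjusted p 0.299; with 6 libraries 0.09 ± 0.10, adjusted p 0.769), standing at 6.76 to 7.07 in siNC and 6.87 to 7.07 in siRPL13.

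SREBF1 stood at 13.40, 13.66 and 13.13 in siNC and at 11.22, 11.51 and 12.86 in siRPL13 in the labelled order. SREBF2, the main transcription factor of cholesterol synthesis, stood at 12.78, 12.87 and 12.65 against 12.09, 12.16 and 12.62. In both host genes of miR-33 every siRPL13 library was below every siNC library, though the library labelled siRPL13 replicate 3 was close to siNC for SREBF2. Over 6 libraries the groups did not overlap in 13.8% of all genes tested. With 6 libraries the SREBF1 difference was -1.54 ± 0.36 (limma adjusted p 0.589). SREBF2 fell by 0.65 ± 0.06 in the 5-library comparison (SE, log2; limma adjusted p 0.00032; with 6 libraries -0.48 ± 0.13, adjusted p 0.589). Neither the microRNAs nor their effect on ABCA1 was measured, and the part of either host gene in the ABCA1 difference was not tested.

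**Figure D3:**
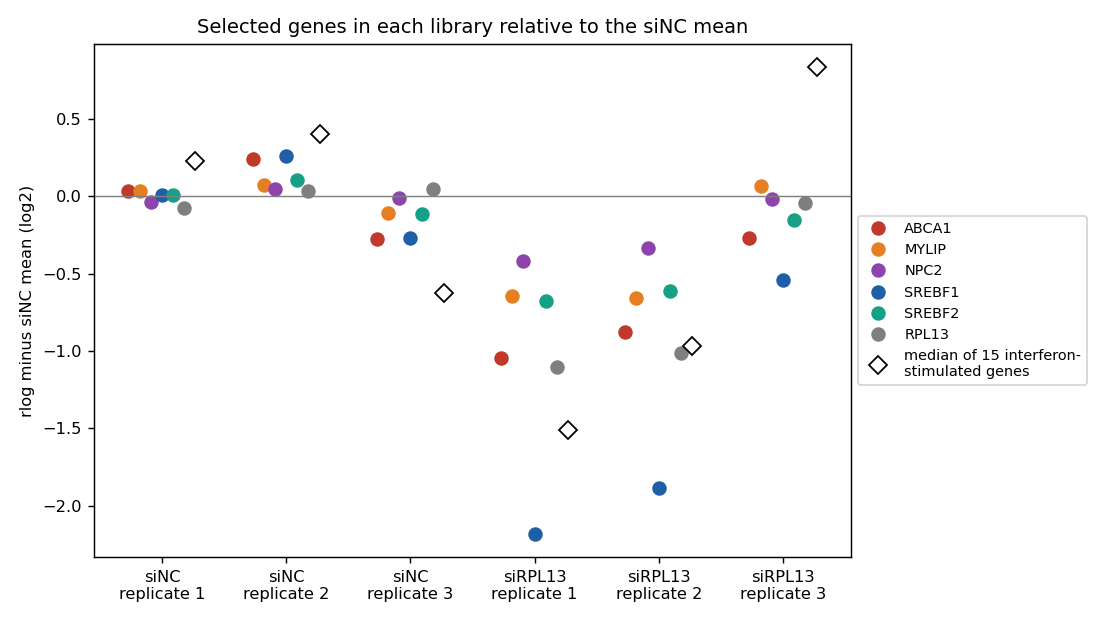
Level of 6 genes and the median of 15 interferon-stimulated genes in each library, as rlog relative to the siNC mean (log2), libraries along the horizontal axis by labelled group and replicate. In siRPL13 replicates 1 and 2 every symbol lies below 0, with ABCA1 near -1, while in the library labelled siRPL13 replicate 3 RPL13, MYLIP and NPC2 lie near 0 and the interferon-stimulated median is at 0.83.

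Genes that make or clear oxysterols were few in the table. Of 11 listed, 5 were tested and 2 fell (40%). CYP27A1, which makes 27-hydroxycholesterol, fell by 0.25 ± 0.06 (SE, log2; limma adjusted p 0.0228; with 6 libraries -0.13 ± 0.10, adjusted p 0.684). The list median was -0.15 (-0.10 with 6 libraries). Among 27 other genes of sterol transport between membranes, 25 were tested, 5 fell (20%) and 1 rose (4%), 24% in all against 19.1% of all genes, with a median of -0.03 (-0.02 with 6 libraries). STARD4 fell by 0.94 ± 0.12 (with 6 libraries -0.67 ± 0.22, limma adjusted p 0.589). The sterol-binding protein genes OSBPL5 and OSBPL3 fell by 0.40 ± 0.07 and 0.21 ± 0.06, the lysosomal membrane genes SIDT2 and LAMP1 fell by 0.32 ± 0.07 and 0.19 ± 0.06, and OSBPL6 rose by 0.21 ± 0.07.

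Besides SOAT1, 8 genes of sterol and glycerol esterification or ester hydrolysis were listed and 5 tested. None rose or fell with limma in the 5-library comparison, and the median was -0.04, against 0.01 with 6 libraries. Of 9 genes of lipoprotein uptake 7 were tested, 5 fell (71.4%) and 0 rose, with a median of -0.30 (-0.20 with 6 libraries). They included LRP8, VLDLR and LRPAP1, a chaperone of the receptor family (-0.17 ± 0.05). Of 15 other ABCA and ABCG transporters and lipid acceptors 7 were tested, 3 fell (42.9%) and 0 rose, with a median of -0.20 (-0.16 with 6 libraries). They were ABCA2 (-0.35 ± 0.08), ABCA7 (-0.33 ± 0.06) and ABCA3 (-0.30 ± 0.06), lipid transporters of the same subfamily as ABCA1. With all 6 libraries 0 genes of these 7 lists passed.

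**Figure D4:**
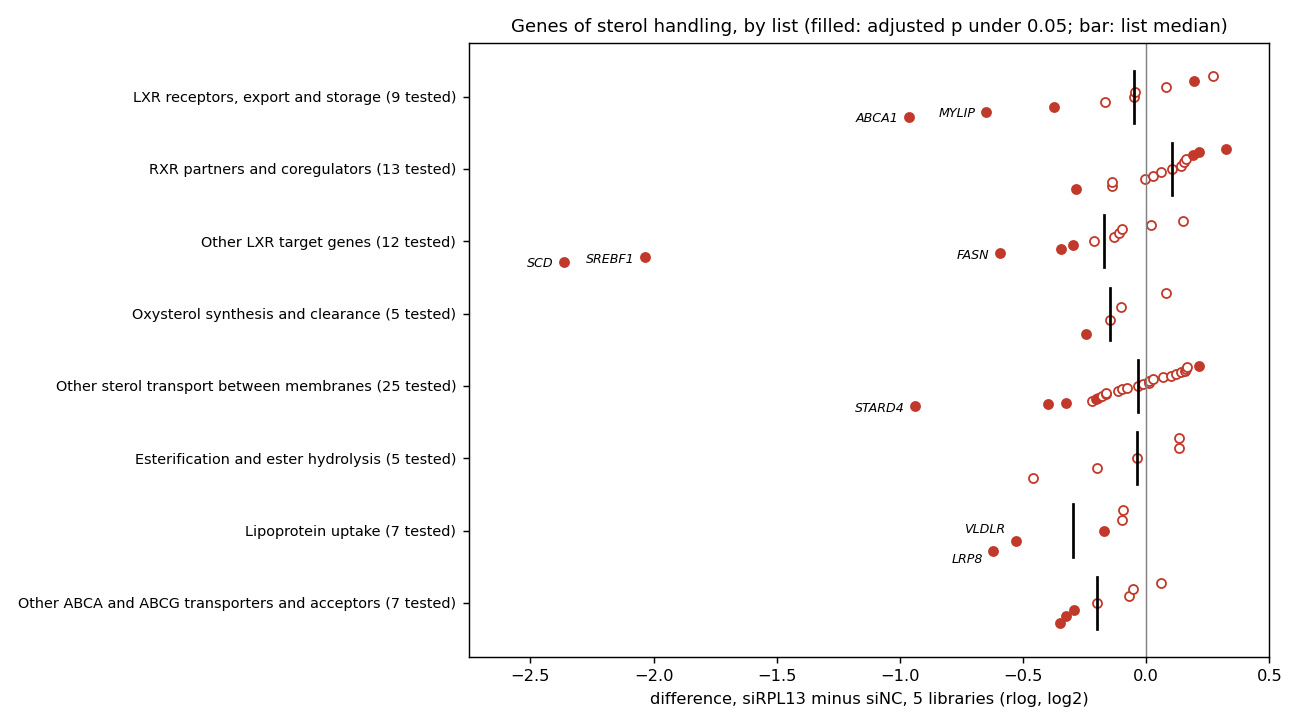
Difference between siRPL13 and siNC in the 5-library comparison (rlog, log2) for the tested genes of the LXR, export and storage group and of 7 related lists, 1 point per gene and 4 genes left out, filled where the limma adjusted p was under 0.05, with a vertical bar at the median of each whole list, left-out genes included. The lipoprotein uptake genes lie at -0.09 or below, while the RXR partners and coregulators lie on both sides of 0.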

How the data were processed

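RNA from 3 siNC and 3 siRPL13 libraries of U251 cells was sequenced by the authors. They deposited regularized-log values (log2), a form stated in the name of the table. Such values are adjusted for library size and shrunk for genes with few reads. Tools listed in the submitters' processing notes, without roles, are DESeq2, HTSeq 0.6.1p1, TopHat and Trimmomatic 0.33, with the build GRCh38.p7. Strand use in counting is not stated in the sources. No count model was applied, because these are not counts, and depth is unknown.

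Symbols came from a table of gene names (20499 of 21429 identifiers) and from GENCODE 29 (20608, with GRCh38 positions); 821 were in neither. The 15327 genes with mean rlog 3 or more entered two-sided limma tests (3.58.1, R 4.3.3; lmFit, then eBayes using a mean-variance trend). P-values were adjusted by Benjamini-Hochberg over all 15327, with a threshold of 0.05. All adjusted p-values of genes come from limma. The code was tested on simulated data.

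The 10 genes, the lists and the 5-library comparison were chosen with earlier results of these data known. Named genes are RPL13, the 10, SREBF1, SREBF2, VLDLR and LRP8, up to 4 called genes per list in the direction with more calls and 2 in the other, and the 3 most like ABCA1. Some genes that the rule picks are not reported here and are left out of the plots, while list counts and medians include them. LPL, LAMP1, LRPAP1, RXRA, RXRB, APOE and the overlapping genes were named after their values were seen. Alternatives were no filter, a minimum of 5, quantile scaling, median centring, no trend, library weights, the replicate block and leaving out each library.

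Sequences are from RefSeq (GRCh38.p14), with both microRNAs matched, and 3′ untranslated regions from GENCODE 29, the longest principal transcript per gene. Figures were drawn with matplotlib 3.10.9.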

Additional observations from a re-analysis of the deposited data

How the results depend on the processing

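In the 5-library comparison ABCA1, MYLIP and NPC2 passed as lower under the 10 alternatives that keep both siRPL13 libraries, with limma adjusted p of at most 0.00341, 0.00192 and 0.00506, while SOAT1 passed in 6 of 10. The other 2 leave a lone siRPL13 library, assumed to vary like siNC. Among the 10, the replicate block gave the same differences as leaving out siNC replicate 3, the only library with that number. The 10 are therefore not independent of each other. With 6 libraries, library weights gave 5309 genes called and 6 of the 9 tested genes, where siRPL13 replicate 2 was weighted 7.19 and the library labelled siRPL13 replicate 3 was weighted 0.163. Leaving out 1 library gave 0 to 2933 genes and 0 to 4 of the 9, the highest without the library labelled siRPL13 replicate 3. NR1H2 then ranged from -0.0744 to 0.00109 (log2), above 0 only without siNC replicate 2. From the 5 libraries, leaving out 1 gave 243 to 3748 genes and 2 to 5 of the 9. The lowest of both came without siRPL13 replicate 1, and 943 genes passed without siRPL13 replicate 2. In the lists the same gave 0 to 6 RXR partners and coregulators, 3 to 6 LXR targets, 1 to 2 oxysterol genes, 1 to 9 sterol transport genes, 0 to 1 esterification genes, 3 to 6 uptake genes and 0 to 3 ABC transporters and acceptors. Library weights gave 7 RXR partners and coregulators, 10 sterol transport genes and 1 esterification gene, quantile scaling 1 esterification gene, and no trend 3 sterol transport genes. Deviations of same-numbered libraries from their group means correlated at 0.084, -0.43 and -0.33. Such deviations cancel out within each group of 3, so these correlations cannot decide whether replicate numbers pair the libraries. The replicate block gave 0 genes with 6 libraries and 3043 with 5, with 4 of the 9, 2 RXR partners and coregulators and 1 esterification gene. The cause of these changes was not tested. Depth is unknown, so how far it limits ABCG1 was not tested.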
